A study of Homo sapiens with 4 samples.

Results

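The genes that carry glucose into cells and lactate out of them were described in HepG2 cells in which the cyclin-dependent kinases CDK4 and CDK6 had been inhibited or depleted. The 9 genes were taken by symbol from 24462 genes with a row in the count tables, and each was listed once in every library. They comprised 6 glucose transporters (SLC2A1, SLC2A2, SLC2A3, SLC2A6, SLC2A8 and SLC2A10), 2 monocarboxylate transporters (SLC16A1 and SLC16A3) and BSG, which encodes the partner protein of the latter. HepG2 is a human liver cancer cell line, here grown in RPMI with fetal bovine serum. There were 4 conditions with 1 library each. In the drug arm, cells received DMSO as the vehicle or PD0332991 (palbociclib), a small-molecule inhibitor of the CDK4 and CDK6 kinases. In the siRNA arm, they were transfected with a scrambled control or with siRNAs against both CDK4 and CDK6, called CDK4/6 KD. For the RNA libraries, neither dose nor exposure time is given in the sources used here. All RNA was primed from the poly(A) tail and read near the 3′ end of each transcript.

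Glucose crosses membranes down its gradient through the GLUT proteins encoded by the SLC2A genes. GLUT1 (SLC2A1) and GLUT3 (SLC2A3) take up glucose with high affinity and are abundant in many tumours, whereas GLUT2 (SLC2A2) is the low-affinity carrier of the normal hepatocyte. Cells that ferment glucose release lactate together with a proton through monocarboxylate transporters. MCT1 (SLC16A1) carries lactate and pyruvate in both directions, MCT4 (SLC16A3) is typical of glycolytic cells that export lactate, and basigin (BSG, CD147) brings both to the cell surface. SLC2A1 and SLC16A3 are well-known targets of hypoxia-inducible factors, whose binding sites often, but not always, hold the letters ACGTG.

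The sequences before the start sites are shown for SLC2A1 and SLC16A3, both far lower after CDK4/6 KD, and for SLC2A10 and BSG, whose fold changes had opposite directions in the siRNA and drug arms. They are 250 bases each, 5′ to 3′ on the gene's strand, from RefSeq on GRCh38.p14, with the letters ACGTG or CACGTG in capitals. For genes with several windows the one with most ACGTG matches is given. The regions are chr1:42958869-42959118 (minus strand) for SLC2A1, chr17:82228792-82229041 (plus) for SLC16A3, chr20:46709399-46709648 (plus) for SLC2A10 and chr19:572346-572595 (plus) for BSG.
SLC2A1: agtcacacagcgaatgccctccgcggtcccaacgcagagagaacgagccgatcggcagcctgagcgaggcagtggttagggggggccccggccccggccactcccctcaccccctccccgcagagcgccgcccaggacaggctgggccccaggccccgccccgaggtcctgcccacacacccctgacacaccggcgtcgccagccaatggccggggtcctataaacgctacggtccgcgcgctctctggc
SLC16A3: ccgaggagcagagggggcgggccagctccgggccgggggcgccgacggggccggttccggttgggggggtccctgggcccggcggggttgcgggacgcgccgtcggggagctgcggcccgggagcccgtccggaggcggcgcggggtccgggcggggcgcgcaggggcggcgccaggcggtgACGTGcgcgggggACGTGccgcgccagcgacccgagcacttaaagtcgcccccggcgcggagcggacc
SLC2A10: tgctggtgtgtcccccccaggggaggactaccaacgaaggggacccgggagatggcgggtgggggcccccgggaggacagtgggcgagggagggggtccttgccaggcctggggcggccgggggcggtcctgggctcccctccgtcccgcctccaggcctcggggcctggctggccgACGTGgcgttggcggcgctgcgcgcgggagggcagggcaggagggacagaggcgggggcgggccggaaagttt
BSG: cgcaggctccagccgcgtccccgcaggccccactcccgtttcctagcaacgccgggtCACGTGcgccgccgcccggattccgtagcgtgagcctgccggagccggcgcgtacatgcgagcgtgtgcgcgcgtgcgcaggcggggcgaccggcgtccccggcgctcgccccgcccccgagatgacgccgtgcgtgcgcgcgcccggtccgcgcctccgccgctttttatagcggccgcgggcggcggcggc

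The SLC16A3 sequence held ACGTG at 2 places, beginning 68 and 55 bases before the start. The SLC2A10 sequence held it once, 73 bases before. In BSG the palindrome CACGTG, which holds ACGTG on both strands, began 193 bases before the start. The SLC2A1 window held neither ACGTG nor CACGTG. Other forms of the site of hypoxia-inducible factors were not searched, and a distal site would lie outside the window. Over windows of 300 bases (250 before and 50 after a start), both strands searched, ACGTG was found in 3 of 12 windows, belonging to 3 of the 7 member genes with a window, against 21.4% of 35116 windows of all genes. CACGTG was in 1 of 12 against 7.26%. Of a pair of E2F-type sequences, TTCCCGC was in 1 of 12 member windows (the other BSG start, 2 matches) against 6.55%, and TTGGCGC was in 0 of 12 against 3.04%. A match describes letters only and is not a bound site.

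The libraries held 8983848 to 11176880 reads assigned to genes, so that 1 normalised CPM (reads scaled to a common library size) stood for 9.11 to 11.3 reads. Both siRNA targets were lower in the library labelled CDK4/6 KD. CDK4 had 814 reads against 3789 with scrambled siRNA (fold change: 0.203) and CDK6 had 1464 against 5734 (fold change: 0.241), while after PD0332991 they were at 0.854 and 0.930 of DMSO. All 8 hepatocyte markers were well counted in every library, with a summed level of 14319.6 CPM in DMSO, 15983 after PD0332991, 14819 with scrambled siRNA and 18267 after CDK4/6 KD. For CDK4/6 KD to scrambled siRNA, ALB at 2.01 and FGB at 2.62 were at least 2-fold higher, beside 9.19% of all genes. In that pair 0 were 2-fold lower, beside 7.62%. After PD0332991 0 of 8 passed 2-fold, beside 7.06% of all genes lower and 7.49% higher. Markers of other cell types also differed between libraries. Of 18 keratinocyte markers, 11 passed the filter in the drug arm. After PD0332991 7 of them were at least 2-fold higher, beside 7.49% of all genes. KRT14, for example, had 9 reads in DMSO and 249 after the drug. SFN alone was at least 2-fold lower, with 1221 and 563 reads, beside 7.06% of all genes. However, the basal markers TP63 and DSG3 had at most 2 reads anywhere. The summed level of that list was 215 CPM in DMSO, 243 after PD0332991, 376 with scrambled siRNA and 219 after CDK4/6 KD, of which SFN alone held 134, 61.8, 305 and 102 CPM. Without SFN it was 80.9, 181, 71.2 and 117 CPM in the same order. The 7 fibroblast markers summed to 54.4, 91.5, 9.35 and 24.6 CPM in the same order, and COL1A1 had 332, 468, 73 and 207 reads. For other lineages, the leukocyte gene PTPRC had at most 2 reads and CD3E and the endothelial gene CDH5 had 0, although LYZ of the blood list had 4587 to 10932. The part of these differences in the transporter values was not tested. In such bulk RNA, fewer cells of a type and less RNA per cell cannot be told apart.

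Of the 9 transporter genes, 3 (SLC2A1, SLC2A3 and SLC16A3) were at least 2-fold lower after CDK4/6 KD than with scrambled siRNA, and SLC2A10 alone was at least 2-fold higher. Among all 13617 genes compared, 7.62% were at least 2-fold lower and 9.19% at least 2-fold higher. After PD0332991, 1 member, SLC2A3, was at least 2-fold lower than in DMSO and 0 were 2-fold higher, where the shares among 13443 genes were 7.06% and 7.49%. Between the control libraries, 1 member was 2-fold lower (SLC2A10) and 1 was 2-fold higher (SLC2A1) with scrambled siRNA than in DMSO, and of 13303 genes 6.64% were lower and 5.3% higher. Over the 9 genes the median on the log2 scale was -0.64 for CDK4/6 KD and -0.28 for PD0332991, beside 0.02 for all genes in the drug arm and -0.00357 in the siRNA arm. With 1 library per condition there was no test, and each interval below is an exact 95% interval (Clopper-Pearson) for counting error only, comparing libraries and not conditions.

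**Figure D1:**
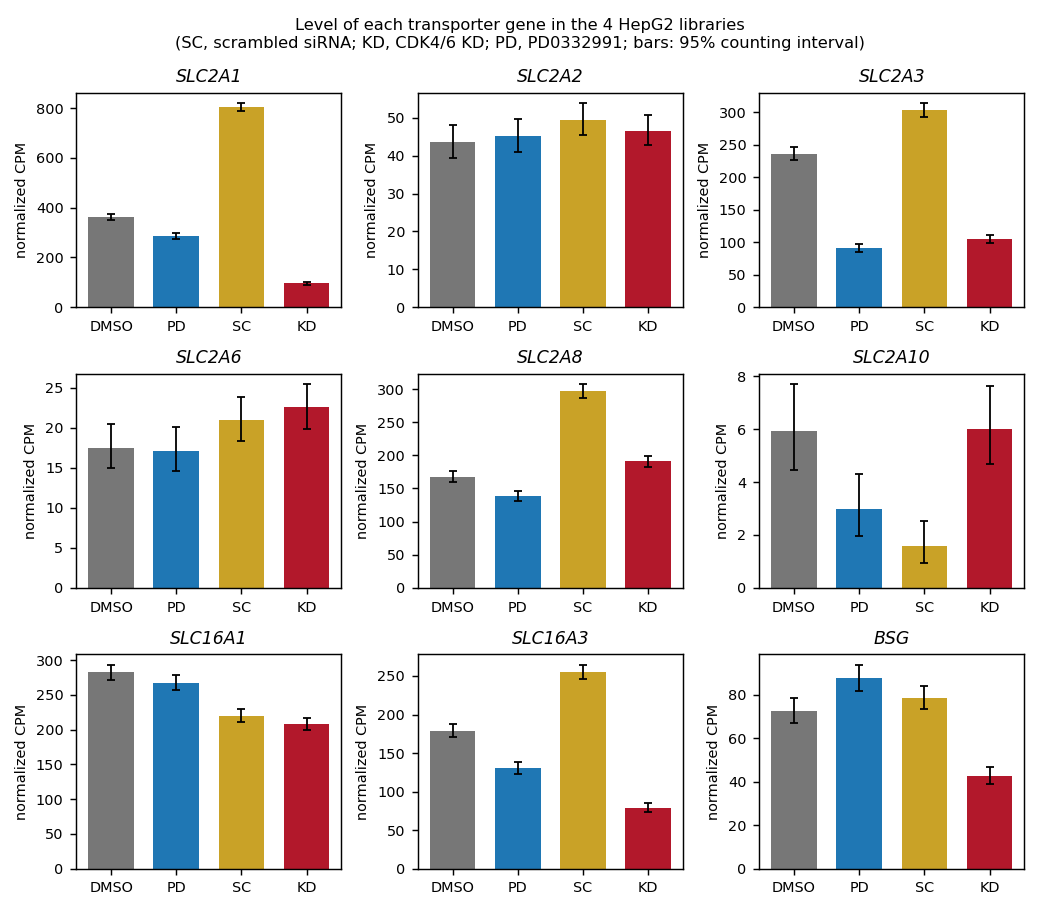
Level of each of the 9 genes in normalised CPM (vertical axis, from 0, scaled for each gene) in the 4 libraries, 1 per condition (SC, scrambled siRNA). Bars are single libraries and black lines 95% counting intervals. SLC2A1 ranged from 96.5 CPM after CDK4/6 KD to 804 CPM with scrambled siRNA, whereas SLC2A2 stayed between 43.6 and 49.5 CPM.

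SLC2A1, encoding the basal glucose transporter GLUT1, spans chr1:42925375-42959176 on the minus strand of GRCh38 (GENCODE 29). It had 3309 reads in DMSO, 2599 after PD0332991, 8603 with scrambled siRNA and 1092 after CDK4/6 KD. These correspond to 362, 285, 804 and 96.5 CPM in the same order. It was thus highest in the scrambled library and lowest in the knockdown library, and no neighbouring levels in this order overlapped in their intervals. The fold change of CDK4/6 KD to scrambled siRNA was 0.120 (0.113 to 0.128), rank 63 from the lowest among 13617 genes. Of the 329 genes with at least its mean read number in that pair, 2 including SLC2A1 itself were as low. For PD0332991 to DMSO the fold change was 0.788 (0.748 to 0.830), and about 25.7% of genes were as low or lower. The choice of control mattered, because SLC2A1 was 2.22-fold (2.13 to 2.31) higher with scrambled siRNA than in DMSO. Set against DMSO, CDK4/6 KD gave 0.266 (0.249 to 0.285). Set against scrambled siRNA, PD0332991 gave 0.355 (0.340 to 0.371). Transfection itself and the scrambled sequence cannot be told apart from other differences between the arms.

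SLC2A3, encoding the high-affinity carrier GLUT3, was the member lowest relative to DMSO after the drug. Like SLC2A1 and SLC16A3, it was lower in both inhibition libraries than in both controls. Its reads numbered 2158 in DMSO, 831 after PD0332991, 3252 with scrambled siRNA and 1190 after CDK4/6 KD, or 236, 91.3, 304 and 105 CPM. The fold change was 0.387 (0.356 to 0.419) for PD0332991 to DMSO and 0.346 (0.323 to 0.370) for CDK4/6 KD to scrambled siRNA. With the control libraries exchanged it was 0.300 for the drug and 0.445 for the knockdown. SLC2A3 lies at chr12:7919230-7936275 on the minus strand of GRCh38 (GENCODE 29), 28082 bases from SLC2A14, a close copy. In the last 500 bases of the annotated transcript, 0 of 426 possible 75-base reads of SLC2A3 occurred in another gene, whereas 43 of 426 (10.1%) of SLC2A14 occurred in SLC2A3. SLC2A14 had 170, 130, 254 and 239 reads in the same library order. Adding them to SLC2A3 gave fold changes of 0.414 for PD0332991 and 0.385 for CDK4/6 KD.

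SLC2A2, the hepatocyte carrier GLUT2, differed little between the libraries. It had 398 reads in DMSO, 411 after PD0332991, 530 with scrambled siRNA and 528 after CDK4/6 KD, and between 43.6 and 49.5 CPM. The fold change was 0.942 (0.833 to 1.06) for CDK4/6 KD and 1.04 (0.901 to 1.19) for PD0332991, and no pair of neighbouring levels differed beyond counting error. SLC2A6 (GLUT6), a carrier found mainly inside the cell, was low, with 160, 156, 224 and 255 reads in the same order, and neighbouring levels overlapped within counting error. The lowest and highest libraries were 17.1 and 22.5 CPM, and CDK4/6 KD to DMSO was 1.29 (1.05 to 1.58), with the whole interval above 1. Its fold changes were 1.08 (0.896 to 1.29) for CDK4/6 KD and 0.978 (0.780 to 1.23) for PD0332991.

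SLC2A8 (GLUT8), an intracellular sugar carrier, was highest with scrambled siRNA and lowest after PD0332991. Its 1529, 1259, 3183 and 2163 reads in DMSO, PD0332991, scrambled siRNA and CDK4/6 KD came to 167, 138, 297 and 191 CPM. It was 1.78-fold (1.67 to 1.89) higher with scrambled siRNA than in DMSO, and 92.5% of all genes were at or below this value. After CDK4/6 KD it was lower than with scrambled siRNA (fold change: 0.642, 0.608 to 0.679) but higher than in DMSO (fold change: 1.14, 1.07 to 1.22), so that its direction turned with the control. For PD0332991 to DMSO the fold change was 0.826 (0.766 to 0.891), and to scrambled siRNA it was 0.465.

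SLC2A10 (GLUT10), best known for its loss in arterial tortuosity syndrome, was the least counted member. It had 54 reads in DMSO, 27 after PD0332991, 17 with scrambled siRNA and 68 after CDK4/6 KD, or 5.91, 2.97, 1.59 and 6.01 CPM. The DMSO and CDK4/6 KD libraries were high and did not differ beyond counting error, and the other two were low. CDK4/6 KD to scrambled siRNA therefore gave 3.70 (2.20 to 6.86), whereas CDK4/6 KD to DMSO gave 1.02 (0.701 to 1.48). The scrambled library was itself low, with scrambled siRNA to DMSO at 0.275 (0.146 to 0.471), so the 2-fold call rested on it. PD0332991 to DMSO was 0.506 (0.304 to 0.811), just inside the 2-fold bound, and PD0332991 to scrambled siRNA was 1.84 (0.981 to 3.65).

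The lactate transporters differed from each other. SLC16A3 (MCT4, annotated at chr17:82228397-82261129 on the plus strand) had 1635 reads in DMSO, 1189 after PD0332991, 2729 with scrambled siRNA and 898 after CDK4/6 KD, corresponding to 179, 131, 255 and 79.3 CPM. Like SLC2A1, it was highest with scrambled siRNA and lowest after CDK4/6 KD. The fold change was 0.311 (0.288 to 0.336) for CDK4/6 KD to scrambled siRNA, and of 1254 genes with at least its mean read number, 12 including SLC16A3 itself were as low. It was 0.444 (0.408 to 0.481) for CDK4/6 KD to DMSO and 0.730 (0.677 to 0.787) for PD0332991 to DMSO. The gene's span includes an extended transcript, and its principal coding transcripts end at position 82239498. The last 500 bases before that end overlap the annotation of CSNK1D on the opposite strand, which shares 76 of 426 (17.8%) of its 75-base reads. CSNK1D, named after its values were seen, had 118, 116, 113 and 105 CPM in the same order. Whether the counting used the strand is not given in the sources used here.

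SLC16A1 (MCT1) was nearly level within each arm. Its reads were 2581 in DMSO, 2433 after PD0332991, 2353 with scrambled siRNA and 2356 after CDK4/6 KD, or 282, 267, 220 and 208 CPM. The fold change was 0.947 (0.894 to 1.00) for CDK4/6 KD, moving to 1.02 with scaling by total counts and 1.01 with quantile normalization, and 0.946 (0.895 to 1.00) for PD0332991. The larger gap was between the arms, at 0.779 (0.736 to 0.824) for scrambled siRNA to DMSO. BSG, the partner of both carriers, had 663, 797, 841 and 483 reads in the same order, or 72.6, 87.5, 78.6 and 42.7 CPM. It was lower after CDK4/6 KD than with scrambled siRNA (fold change: 0.543, 0.484 to 0.608) and than in DMSO (fold change: 0.588, 0.522 to 0.662). After PD0332991 it was slightly higher than in DMSO (fold change: 1.21, 1.09 to 1.34). NPTN, a relative of basigin that can also partner MCT proteins, was at 1.03 for CDK4/6 KD and 0.898 for PD0332991, while EMB, the third such partner, had at most 3 reads.

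**Figure D2:**
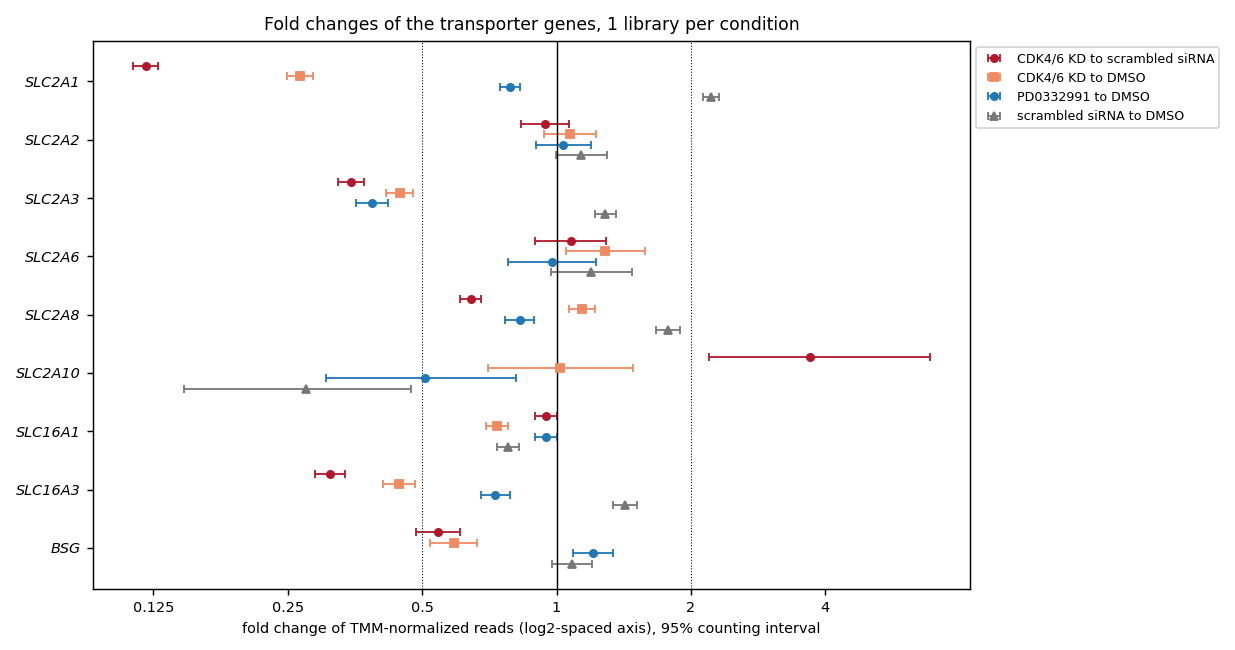
Fold change of each gene on a log2-spaced axis in 4 pairs of libraries, with 95% counting intervals, the solid line at 1 and dotted lines at 0.5 and 2. Points for CDK4/6 KD to scrambled siRNA and to DMSO lie apart for SLC2A1 (0.120 and 0.266), SLC2A8 (0.642 and 1.14) and SLC2A10 (3.70 and 1.02), and close together for BSG (0.543 and 0.588).

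The plot of fold changes shows how far the scrambled library set the size of the knockdown values. SLC2A1, SLC2A3 and SLC16A3 stayed at least 2-fold lower when CDK4/6 KD was set against DMSO, where 8.16% of 13512 genes were lower to that degree, and 0 members were 2-fold higher, against 8.04% of genes. With PD0332991 set against scrambled siRNA, 3 members (SLC2A1, SLC2A3 and SLC2A8) were at least 2-fold lower, where 8.17% of 13552 genes were, and 0 were 2-fold higher, against 10.6%. The comparisons share libraries, so these counts are not independent. Many genes differed beyond counting error, which leaves out the spread of replicates. For CDK4/6 KD to scrambled siRNA 5 of 9 members had their whole interval below 1 and 1 above, against 31.9% and 29.98% of all genes. After PD0332991 it was also 5 below and 1 above, against 28.6% and 28.1%.

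Summed over the 6 GLUT genes, the level was 833 CPM in DMSO, 580 after PD0332991, 1477 with scrambled siRNA and 468 after CDK4/6 KD. The sum after CDK4/6 KD was 0.317 (0.307 to 0.327) of that with scrambled siRNA, and without SLC2A1 it was 0.552 (0.531 to 0.573). For PD0332991 to DMSO the sum gave 0.697 and, without SLC2A1, 0.627. Levels were not divided by length, since the protocol yields reads at 1 end of a transcript, and shares are of reads. SLC2A1 made up 43.5% of the GLUT reads in DMSO, 49.2% after PD0332991 and 54.4% with scrambled siRNA, but 20.6% (19.5 to 21.7) after CDK4/6 KD. In that library SLC2A8 was the most counted GLUT gene, with 40.8% (39.5 to 42.2) against 20.1% in both controls and 23.8% after the drug. SLC2A3 took 28.4% in DMSO and 15.7% after PD0332991, and 20.6% and 22.5% with scrambled siRNA and CDK4/6 KD. The hepatocyte form SLC2A2 took 5.23%, 7.78%, 3.35% and 9.97% in the order DMSO, PD0332991, scrambled siRNA and CDK4/6 KD.

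**Figure D3:**
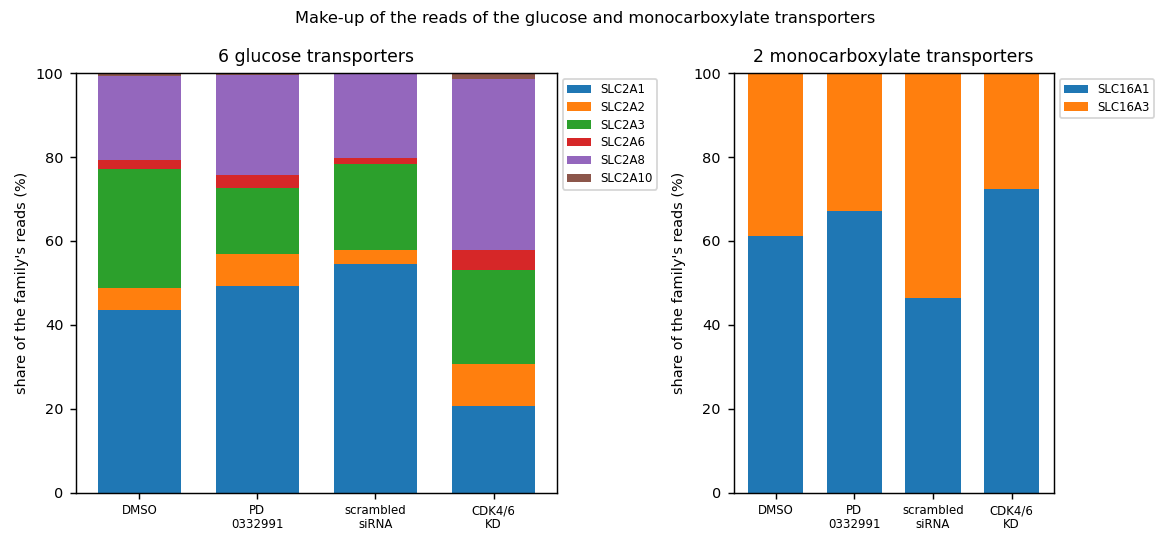
Share of reads (percent) that each gene took of the 6 glucose transporters (left) and of the 2 monocarboxylate transporters (right) in each library, 1 per condition. SLC2A1 fills 54.4% of the glucose transporter reads with scrambled siRNA and 20.6% after CDK4/6 KD, and SLC16A3 fills 53.7% and 27.6% of the monocarboxylate transporter reads.

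Ratios of reads within 1 library do not depend on the scaling between libraries. SLC2A1 had 8.31 reads for each SLC2A2 read in DMSO (7.49 to 9.25), 6.32 after PD0332991 (5.70 to 7.03), 16.2 with scrambled siRNA (14.9 to 17.8) and 2.07 after CDK4/6 KD (1.86 to 2.30). The ratio of SLC2A3 to SLC2A1 was 0.652 in DMSO and 0.320 after PD0332991, but 0.378 with scrambled siRNA and 1.09 after CDK4/6 KD. Relative to SLC2A1, SLC2A3 was thus lower in the drug library and higher in the knockdown library than in its own control. The ratio of SLC16A3 to SLC16A1 was 0.633 in DMSO, 0.489 after PD0332991, 1.16 with scrambled siRNA and 0.381 after CDK4/6 KD, so that the export-type carrier exceeded MCT1 in reads in the scrambled library and in none of the other 3.

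Other carriers were mostly sparse, and each list below has few tested genes. The counts of genes past 2-fold stand beside shares among all genes of 7.62% lower and 9.19% higher after CDK4/6 KD to scrambled siRNA, and of 7.06% lower and 7.49% higher after PD0332991 to DMSO. Of 8 further GLUT genes, 6 passed the filter of 10 reads and SLC2A5 and SLC2A7 had 0 reads. After CDK4/6 KD 0 of 6 were 2-fold lower and 1 was 2-fold higher, SLC2A4 (GLUT4, the insulin-responsive carrier of muscle and fat), with 73 reads after CDK4/6 KD and 25 with scrambled siRNA, although DMSO had 63 (fold change of CDK4/6 KD to DMSO: 0.936). The list median was -0.15 on the log2 scale. After PD0332991, 1 of 6 was 2-fold lower, the urate carrier SLC2A9 with 103 reads in DMSO and 50 after the drug (fold change: 0.490), 0 were 2-fold higher and the median was -0.10. SLC2A11 gave 1.75 after the drug and 0.756 after CDK4/6 KD. Among 6 sodium-coupled or other sugar carriers, SLC5A9 was higher after CDK4/6 KD, with 300 reads and 120 with scrambled siRNA (fold change: 2.36), SLC5A10 was lower, with 9 and 34, and SLC5A4 had 14 and 0. In that list 1 of 5 tested genes was 2-fold lower and 3 were 2-fold higher, with a median of 1.16, and after PD0332991 0 of 4 were lower and 1 higher, with a median of 0.23. Of 14 further monocarboxylate carriers 7 passed the filter in each arm. After CDK4/6 KD 2 were 2-fold lower and 1 was higher (median -0.41), namely SLC16A6, lower with 18 reads after CDK4/6 KD and 95 with scrambled siRNA, SLC16A5, lower with 23 and 48, and the aromatic amino acid carrier SLC16A10, higher with 163 and 63. To DMSO the fold changes of these 3 were 0.148, 0.930 and 1.26, so that SLC16A6 alone of them stayed past 2-fold. After PD0332991 2 were lower and 0 higher (median -0.46), SLC16A4 with 48 and 23 reads and SLC16A7 (MCT2) with 22 and 9, and SLC16A10 had 104 and 58.

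Genes that set how much GLUT1 stands at the cell surface went both ways. Of 8, 0 were 2-fold lower and 1 was 2-fold higher after CDK4/6 KD than with scrambled siRNA, and the median log2 fold change was 0.03. In that pair 3 had their whole interval below 1 and 3 above, where all genes gave 31.9% and 29.98%. Their summed level was 578 CPM and 683 CPM. The exception was ARRDC4, an arrestin that lowers glucose uptake, with 61 reads after CDK4/6 KD and 15 with scrambled siRNA (fold change: 3.75). VPS35, a retromer subunit that returns GLUT1 to the membrane, had 1763 and 2558 reads (fold change: 0.652), and its partner SNX27 gave 1.46. TXNIP, which promotes removal of GLUT1 from the surface, had 918 reads in DMSO, 1149 after PD0332991, 2098 with scrambled siRNA and 1646 after CDK4/6 KD. After PD0332991 0 of 8 passed 2-fold in either direction (median 0.14), with TBC1D5 at 1.5 and the retromer genes VPS29 and VPS26A at 0.678 and 0.686.

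Of 24 glycolysis genes, the enzymes that use the imported glucose, 17 passed the filter in the siRNA arm. After CDK4/6 KD, 4 were at least 2-fold lower than with scrambled siRNA and 1 was higher, where all genes gave 7.62% and 9.19%, and 13 had their whole interval below 1 and 2 above, where all genes gave 31.9% and 29.98%. The median log2 was -0.60. PKM, the pyruvate kinase of proliferating cells, had 3522 reads after CDK4/6 KD and 9752 with scrambled siRNA (fold change: 0.341), PFKP had 36 and 101 (fold change: 0.340) and GPI had 1698 and 3497 (fold change: 0.459). The muscle enolase ENO3 was the gene 2-fold higher (fold change: 2.28), and the liver pyruvate kinase PKLR was at 1.82. The list was itself high in the scrambled library, with a median of 0.40 to DMSO. In that pair 12 of 18 intervals lay above 1 and 2 below, where all genes gave 28.3% and 28.0%. Past 2-fold, 2 were lower and 1 was higher, where all genes gave 6.64% and 5.3%. For CDK4/6 KD to DMSO 2 of 18 were 2-fold lower and 2 higher, where all genes gave 8.16% and 8.04%, with a median of -0.28. PKM at 0.537 and GPI at 0.533 were then no longer past 2-fold, and PFKP was at 0.419. After PD0332991 0 of 18 were 2-fold lower and 2 higher, where all genes gave 7.06% and 7.49%, with a median of -0.21. Of these 18, 10 had their whole interval below 1 and 3 above, where all genes gave 28.6% and 28.1%. In DMSO and after the drug, 1 of the 2 higher genes had only 5 and 11 reads. LDHA, which makes lactate, went from 12682 reads in DMSO to 7760 (fold change: 0.614), and was at 0.535 after CDK4/6 KD. PGAM1 was at 0.579 after the drug, while PKLR was higher, with 192 and 413 reads (fold change: 2.16). Among 10 genes of liver glucose handling, 0 of 8 tested passed 2-fold after CDK4/6 KD to scrambled siRNA (median -0.11), but to DMSO 2 of 9 were lower and 3 higher, with PKLR at 2.72 and GCKR at 2.16. After PD0332991 4 of 9 were 2-fold higher, beside 7.49% of all genes, with 0 lower (median 0.45). They included G6PC, which releases free glucose, with 12 and 67 reads, and GCKR, the glucokinase regulator, with 74 and 268. PKLR, counted in both lists, was another. In the siRNA arm G6PC had only 2 reads with scrambled siRNA and 1 after CDK4/6 KD.

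Of 10 hypoxia-inducible genes outside glycolysis, 4 were at least 2-fold lower and 1 was higher after CDK4/6 KD than with scrambled siRNA, beside 7.62% and 9.19% of all genes, with a median log2 of -0.86. ADM had 136 reads after CDK4/6 KD and 422 with scrambled siRNA (fold change: 0.305), NDRG1 had 558 and 1360 (fold change: 0.388) and PDK1, which holds pyruvate back from mitochondria, had 150 and 355 (fold change: 0.400). The remaining gene of the 4 had only 1 read after CDK4/6 KD and 11 with scrambled siRNA. In the other direction, VEGFA had 1250 and 560 (fold change: 2.11). After PD0332991 0 of 8 tested passed 2-fold (median 0.01), with NDRG1 at 1.57, VEGFA at 1.5 and ANKRD37 at 0.534. In the scrambled library ADM and NDRG1 were 2.17-fold and 1.76-fold higher than in DMSO, whereas VEGFA was lower (fold change: 0.811, 0.721 to 0.911). For that pair 6 of 9 tested genes had their whole interval above 1 and 1 below. All genes gave 28.3% and 28.0%, and the list median was 0.17. For CDK4/6 KD to DMSO 1 of 9 was 2-fold lower, PDK1 at 0.432, and 0 were higher, beside 8.16% and 8.04% of all genes. The list median was -0.35 there, and ADM at 0.662, NDRG1 at 0.682 and VEGFA at 1.71 were no longer past 2-fold.

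**Figure D4:**
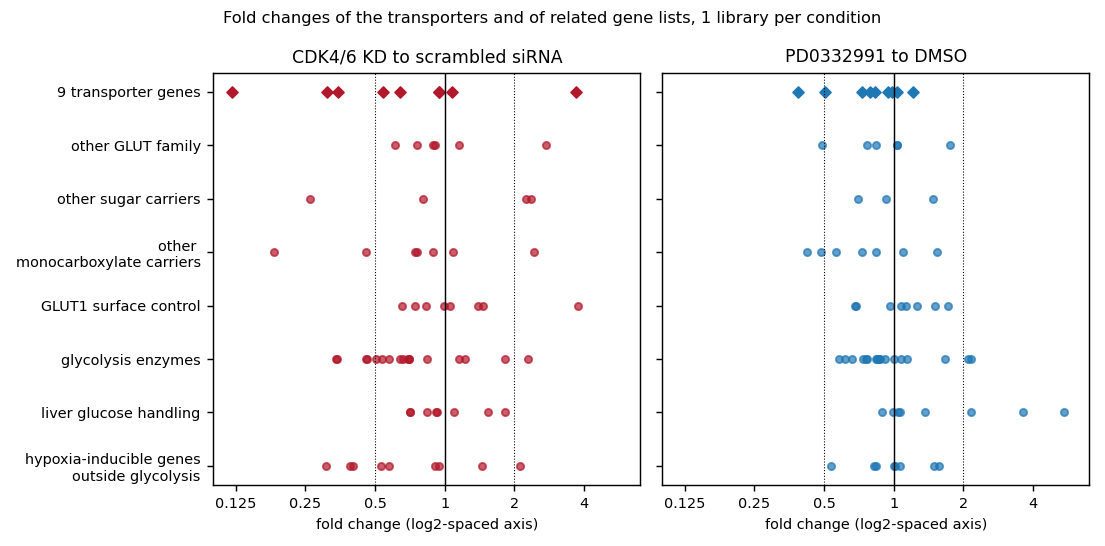
Fold changes (log2-spaced axis, dotted lines at 0.5 and 2) of the 9 transporter genes (diamonds) and of genes in 7 related lists (circles) that passed the filter and had over 3 reads in both libraries. After CDK4/6 KD (left) the median log2 was -0.60 for glycolysis enzymes and -0.86 for hypoxia-inducible genes, and after PD0332991 (right) it was -0.21 and 0.01.

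The genes most like each member were sought among 9221 genes averaging 100 or more reads, by the largest gap in log2 CPM over the 4 libraries after centring each gene. This is a description over 4 libraries. For SLC2A1 they were the cytokine gene IL11 (largest gap 0.32), the metallothionein MT2A (0.33) and the stress-response gene IER3 (0.37), and 0 genes came within 0.25. MT2A, for example, had 1809.5 CPM in DMSO, 917 after PD0332991, 2542 with scrambled siRNA and 474 after CDK4/6 KD. For SLC2A3 4 genes came within 0.25, and the closest were PNP (0.18), NES (0.24) and FKBP5 (0.24). For SLC16A3 32 genes did, headed by BLOC1S5 and its read-through EEF1E1-BLOC1S5, whose reads may overlap, and RAPGEF5. The even members had many like them, with 2052 genes within 0.25 of SLC2A2, 1416 of SLC2A6 and 978 of SLC16A1, closest to LTBR, SHKBP1 and PPM1F. SLC2A8 had 181, headed by AKIRIN1, and BSG had 165, headed by SLC35A2, CCNI and CAD. Between members, SLC2A1 was closest to SLC16A3 (0.74) and farther from SLC2A3 (1.01), and the closest pair was SLC2A2 and SLC2A6 (0.20).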

How the data were processed

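Total RNA of HepG2 cells was made into QuantSeq 3′ libraries, 1 per condition, and sequenced as single 75-base reads. The authors deposited raw counts per gene symbol, 25737 entries per library, and the submitters' processing notes name hg19, Bowtie2 and edgeR with no role or version. The aligner settings, counter, annotation and strand are not given in the sources used here. The study's results speak of a microarray where its methods and the labels describe sequencing.

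Repeated symbols (286) were summed, giving 24462 genes. Counts were scaled by TMM (edgeR 4.0.16), and fold changes used a pseudocount of 0.5 reads for genes reaching 10 reads in one library or the other of a pair. A gene was called at 2-fold. Intervals are exact 95% Clopper-Pearson intervals of the 2 counts, which take PCR copies as independent molecules. With 1 library per condition no single comparison could be tested, the drug and siRNA libraries were not pooled as replicates, and no p-value is given. A gene with 3 reads or fewer is given by its counts. DESeq2 1.42.0 size factors, limma 3.58.1 quantile normalization, total counts and other settings were alternatives. The interval code was tested on simulated data.

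The 9 members and the gene lists were chosen with earlier results of these data known. Named were the members, SLC2A14, the siRNA targets, and the 3 genes nearest in pattern to each member with at least 100 reads on average. Up to 3 genes per list and comparison were named, those whose interval end nearest to 1 lay farthest from it. Some further list genes are named outside this rule, among them genes with few or no reads. Promoters came from RefSeq (GRCh38.p14), where 7 of 9 members had a window, and gene ends from GENCODE 29 (GRCh38). As the counts were made on hg19, these served only to describe the genes.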

Additional observations from a re-analysis of the deposited data

Results flagged for a closer look

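SLC2A10 and BSG had fold changes of opposite direction in the siRNA and drug arms. SLC2A10 was at 3.70 for CDK4/6 KD to scrambled siRNA and at 0.506 for PD0332991 to DMSO, on 17 to 68 reads per library. With the control libraries exchanged it was at 1.02 (0.701 to 1.48) for CDK4/6 KD and 1.84 (0.981 to 3.65) for PD0332991. The opposite directions thus depend on which control library is used. BSG was at 0.543 for CDK4/6 KD and 1.21 for PD0332991, and with the controls exchanged at 0.588 and 1.11. The difference between the arms was not tested, since each condition had 1 library.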

How the results depend on the processing

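Within a single comparison no paired analysis was possible because each condition had 1 library, so that the groups compared shared only 1 replicate number. No library could be left out, and the drug and siRNA libraries were not pooled as replicates. The 4 counts of members past 2-fold were the same with DESeq2 size factors, total counts, a pseudocount of 5 reads, no filter, a filter of 50 reads, whole intervals past 2-fold and the most counted entry of a symbol. Against the control library of the other arm, the count higher after CDK4/6 KD was 0 in place of 1 and the count lower after PD0332991 was 3 in place of 1. With a 1.5-fold bound 5 members were lower after CDK4/6 KD and 2 after PD0332991. With quantile normalization 2 were lower after PD0332991, because SLC2A10 came to 0.479, and SLC2A1 with scrambled siRNA to DMSO came to 1.99. Total counts put the median of all genes at 0.10 (log2) for CDK4/6 KD against -0.00357, and relative to that median 3 members were 2-fold lower and 1 higher, as before. Of 156 member fold changes under the alternatives, 133 stayed within the counting interval of the reported value and 23 lay outside it, 13 of them with the control of the other arm, where SLC2A8 after CDK4/6 KD turned to 1.14. The ratio of SLC2A3 to SLC2A1 after CDK4/6 KD was 1.31 with SLC2A14 added. Among the related lists, PKM, GPI, ADM and NDRG1 after CDK4/6 KD were past 2-fold to scrambled siRNA and not to DMSO. The depth limits SLC2A10 most. How far replicate cultures would spread was not measured.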
